A study of Mus musculus with 9 samples.

Results

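The 10 genes described here, *Pecam1*, *Cdh5*, *Kdr*, *Flt1*, *Tek*, *Tie1*, *Emcn*, *Vwf*, *Gpr182* and *Lyve1*, are genes of the endothelial cells that line blood and lymph vessels, taken out of 22337 genes measured in whole mouse testes. They were selected by symbol, and the choice was made with earlier results of the same data known: *Gpr182* was chosen by its lower level in heterozygous than in wild-type testes, so its differences between genotypes are given as a description, with no test. RNA-seq was performed on 9 testis samples of 3-week-old mice, 3 of each genotype. The genotypes were wild-type (WT-WT), heterozygous for a knock-in allele of *Piwil4* (*Piwil4* WT/R264W, WT-KI) and homozygous for it (*Piwil4* R264W/R264W, KI-KI). The allele was made by CRISPR-Cas9 injection of C57BL/6 zygotes and changes 1 amino acid of PIWIL4, the PIWI protein that directs transposon methylation in fetal male germ cells. It is in the germline, so every cell of the mouse carries it, the endothelium included, and gene counts do not show which allele a read came from. Beyond naming separate samples, the labels do not say whether the 3 samples of a genotype came from separate mice or litters, and p-values measure only the spread between these samples.

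Endothelial cells of the testis line arteries, veins and the capillaries that run between and around the seminiferous tubules, and lymph vessels drain the same interstitial space. Vascular endothelial growth factor (VEGF) acts on them through the receptors encoded by *Kdr* and *Flt1*, and angiopoietins act through the receptor encoded by *Tek*, with *Tie1* as its partner. *Pecam1* and *Cdh5* encode adhesion proteins of the junctions between endothelial cells, *Emcn* a sialomucin of capillaries and veins, and *Vwf* the clotting protein that endothelial cells and megakaryocytes store. *Lyve1* encodes a hyaluronan receptor of lymphatic endothelium that some tissue macrophages also make, and *Gpr182* an atypical receptor for chemokines found on lymphatic and sinusoidal endothelium.

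RefSeq promoters on GRCm38.p6, from 250 bases before to 50 bases after the start of the gene, were matched for 5 of the 10 members (*Kdr*, *Flt1*, *Tek*, *Tie1* and *Emcn*). Transcription factors of the ETS family, which act at many endothelial genes, bind around a GGAA core, and 3 of the promoters are shown for the spread of this core along them. *Kdr* (chr5:75978406-75978705, minus strand) and *Flt1* (chr5:147725962-147726261, minus strand) encode receptors for the same ligand, and *Emcn* (chr3:137340828-137341127, plus strand) is the member whose KI-KI and WT-WT testes did not overlap. In that contrast 5.58% of all genes tested did not overlap either. Capitals mark GGAA on either strand, read as TTCC where it lies on the other.
Kdr: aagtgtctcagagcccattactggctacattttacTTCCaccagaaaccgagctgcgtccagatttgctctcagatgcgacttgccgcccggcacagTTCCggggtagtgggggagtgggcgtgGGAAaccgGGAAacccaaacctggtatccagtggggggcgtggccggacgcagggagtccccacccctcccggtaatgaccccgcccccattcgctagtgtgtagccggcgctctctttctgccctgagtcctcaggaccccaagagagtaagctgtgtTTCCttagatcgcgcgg
Flt1: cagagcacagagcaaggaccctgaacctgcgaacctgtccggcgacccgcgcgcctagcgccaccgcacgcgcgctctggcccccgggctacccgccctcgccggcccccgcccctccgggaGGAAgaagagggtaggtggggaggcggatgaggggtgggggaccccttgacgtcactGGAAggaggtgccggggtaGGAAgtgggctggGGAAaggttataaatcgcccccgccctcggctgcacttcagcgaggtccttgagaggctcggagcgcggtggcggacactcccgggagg
Emcn: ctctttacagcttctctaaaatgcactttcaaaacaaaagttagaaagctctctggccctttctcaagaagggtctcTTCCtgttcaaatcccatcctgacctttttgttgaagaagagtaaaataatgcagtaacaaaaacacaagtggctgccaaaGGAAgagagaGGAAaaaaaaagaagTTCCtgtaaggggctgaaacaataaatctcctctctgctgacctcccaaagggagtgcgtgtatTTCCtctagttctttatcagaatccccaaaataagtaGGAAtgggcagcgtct
The core was present 5 times in the *Kdr* promoter, 4 times in that of *Flt1*, 6 times in that of *Emcn*, 2 times in that of *Tek* and 9 times in that of *Tie1*. It is a short word: 96% of 32851 promoters of the same length held it on either strand, with a median of 3 matches. The longer ETS word CCGGAA, which contains GGAA, was found 1 time, in *Kdr*, and in 14.9% of all promoters. The GATA word GATAA occurred 1 time each in *Tek* and *Emcn* (25.4% of all promoters), the SOX word ATTGT 2 times in *Tek* and 1 time in *Emcn* (31% of all promoters), and the TATA box TATAAA 1 time, in *Flt1*, 31 bases before the start (13.6% of all promoters). These matches are a description of the letters, and no binding was measured.

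All 10 members were detected in all 9 testes, at low counts. Libraries held 20151936 to 22990253 counts in WT-WT, 17964135 to 22191645 in WT-KI and 18415859 to 24279056 in KI-KI testes. *Cdh5* received the most counts, 136 to 303 a testis, and *Gpr182* the fewest, 7 to 29. Of 32 other endothelial genes, 30 passed the filter on low counts across the 9 testes and none was at 0 in all of them, and their summed level was 163 to 207 CPM (counts scaled to a common library size with TMM). The summed level of the 10 members was 34.0 to 47.0 CPM, against 1250 to 1910 CPM for 12 genes of Sertoli cells. In RNA of a whole organ, fewer endothelial cells and less RNA per endothelial cell cannot be told apart.

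Per length, in FPKM (fragments scaled by transcript length and by library size), *Cdh5* stood at a level of 2.53 ± 0.662 (SD, n = 9) and *Pecam1* at 1.55 ± 0.323. *Cdh5* was above *Pecam1*, and *Pecam1* above *Kdr*, in 9 of 9 testes, so the junction genes led the order. *Kdr*, the main signalling receptor for VEGF, was at an FPKM level of 1.01 ± 0.145 and was above *Vwf*, the next in order, in 7 of 9 testes.

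*Vwf* (0.781 ± 0.241), *Emcn* (0.767 ± 0.207), *Lyve1* (0.702 ± 0.217), *Tek* (0.668 ± 0.164) and *Tie1* (0.639 ± 0.143) had mean FPKM levels within 1 SD of their neighbours, and each was above the next in only 4 to 6 of 9 testes. Their order is therefore not resolved. *Tie1* was above *Flt1* (0.484 ± 0.0963 FPKM) in 6 of 9 testes. *Flt1*, the receptor that also exists as a soluble trap for VEGF, was above *Gpr182* (0.206 ± 0.0934 FPKM) in 9 of 9, which put *Gpr182* last. Among all 22337 genes the mean FPKM levels lay between the percentiles 30.4 (*Gpr182*) and 50.6 (*Cdh5*).

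**Figure D1:**
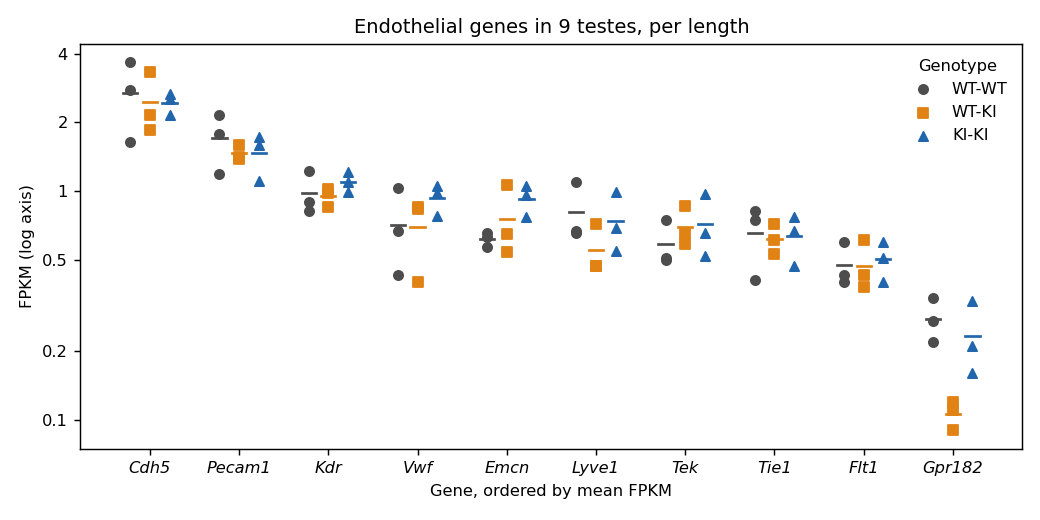
FPKM on a log axis (vertical) of each of the 10 genes (horizontal, by mean level), 1 point a testis and a bar at the mean of the 3 testes of a genotype. *Cdh5* and *Pecam1* lie above the rest, 5 genes with means of 0.639 to 0.781 overlap, and the 3 WT-KI values of *Gpr182* (0.09 to 0.12) lie below its other 6.

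The members differed in how far they moved between testes. Over the 9 testes the coefficient of variation of the CPM level was smallest for *Kdr* (13.6%, against 8.86% expected from Poisson counting of its reads). It was largest for *Gpr182* (44.7%, against 23.9%) and *Vwf* (36.2%, against 9.14%). For the other 7 genes it was 21.1% to 31.1%, with 6.82% to 19% expected from counting. For *Emcn*, the member with the second lowest counts, it was 24.7% against 19%. The highest testis exceeded the lowest by 3.73-fold in CPM for *Gpr182*, 3.01-fold for *Vwf* and 1.40-fold for *Kdr*. Both *Gpr182* values include the low WT-KI testes on which it was chosen, so its first place is only a description.

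Correlations between the members were of both signs. Over the 45 pairs of members, Pearson's r of log2 CPM across the 9 testes ran from -0.68 (*Flt1* with *Tie1*) to 0.60 (*Tek* with *Emcn*), with a median of 0.13. These values are a description over 9 libraries that differ in genotype and in stage. Counting error pulls r toward 0 for genes with few counts, and r of other gene pairs was not computed. Whether the members share a rise and fall was therefore not tested. The 5 genes most like the mean of *Pecam1*, *Cdh5*, *Kdr*, *Tek*, *Tie1* and *Emcn*, out of 12972 genes with a mean of at least 50 counts, were *Trmt61a* (r = 0.91), *Nrp1* (0.90), *Tbc1d9b* (0.89), *Itga7* (0.88) and *Niban2* (0.88). *Nrp1*, 1 of the 5, encodes a co-receptor for VEGF. The 5 are the highest of 12972 correlations over only 9 testes, so high values can come from the ranking itself. No test was made of them, and the ranking is only a description.

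The first question was whether the members differed between genotypes. By the quasi-likelihood test of edgeR, adjusted after Benjamini and Hochberg, 0 of the 9 members other than *Gpr182* had an adjusted p under 0.05 in any of the 3 contrasts, and 0 of the 9 had an unadjusted p under 0.05. At the unadjusted threshold the share of all genes tested was 1.26% for KI-KI against WT-WT, 1.11% for WT-KI against WT-WT and 2.22% for KI-KI against WT-KI, and 0 of 15543, 0 of 15413 and 0 of 15463 genes passed the adjusted one. DESeq2 and limma, run as alternatives, also gave 0 of these members at an adjusted p under 0.05. Over all genes, DESeq2 called 2 of 15524 in KI-KI against WT-WT, 0 of 15393 in WT-KI against WT-WT and 6 of 15452 in KI-KI against WT-KI testes. Of the 16 other fits of each contrast, 2 for KI-KI against WT-WT had 1 member at an unadjusted p under 0.05, and none did for the other contrasts.

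The log2 fold changes of the 9 members lay between -0.37 and 0.59 in KI-KI against WT-WT testes, with a median of 0.04 beside -0.01 for all genes tested. In WT-KI against WT-WT testes they lay between -0.58 and 0.41, with a median of -0.10 beside -0.02. In KI-KI against WT-KI testes they lay between -0.13 and 0.47, with a median of 0.09 beside 0.01. Positive values were found for 5, 2 and 8 of the 9 members. Each genotype serves in a pair of these contrasts, so they are not independent of each other. At 20 to 303 counts a gene and 3 testes a genotype, the standard errors set what could be seen. In KI-KI against WT-WT testes they ran from 0.19 (*Kdr*) to 0.38 (*Vwf*) over the 9 members. *Emcn* had 0.26, *Lyve1* 0.33 and *Cdh5*, the member with the most counts, 0.27, so the errors did not simply follow the counts.

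*Emcn* was the only member of the 9 whose groups did not overlap, in KI-KI against WT-WT testes, where 5.58% of all genes tested did not overlap either. *Emcn* counts were 40, 30 and 31 in KI-KI testes, 25, 21 and 20 in WT-WT testes and 24, 31 and 27 in WT-KI testes. The 3 KI-KI testes were thus above the 3 WT-WT testes, and the WT-KI testes overlapped both. In CPM the gap was small, 1.22 in KI-KI replicate 2 against 1.16 in WT-WT replicate 1. *Emcn* CPM was 1.59 ± 0.319 in KI-KI, 1.05 ± 0.0993 in WT-WT and 1.41 ± 0.327 in WT-KI testes (SD, n = 3 each). Its log2 fold change in KI-KI against WT-WT testes was 0.59 (SE 0.26), which did not pass edgeR's quasi-likelihood test (adjusted p = 1).

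*Lyve1* counts were 45, 40 and 66 in WT-WT testes, 31, 25 and 39 in WT-KI testes and 45, 40 and 54 in KI-KI testes. A pair of WT-KI testes held the lowest CPM of the 9, and the third, at 2.05, was above WT-WT replicate 2 at 1.96, so these groups overlapped. *Lyve1* CPM was 2.41 ± 0.674 in WT-WT, 1.61 ± 0.379 in WT-KI and 2.24 ± 0.747 in KI-KI testes (SD, n = 3 each). The log2 fold change of *Lyve1* was -0.58 (SE 0.30) in WT-KI against WT-WT testes (edgeR's quasi-likelihood test, adjusted p = 1). It was 0.47 (SE 0.32, adjusted p = 0.948) in KI-KI against WT-KI testes, which share the WT-KI libraries. Both moved with single libraries: the first was -0.80 without WT-KI replicate 3 and -0.33 without WT-WT replicate 3, and the second was 0.68 without WT-KI replicate 3 and 0.17 without KI-KI replicate 3. In KI-KI against WT-WT testes it was -0.11 (SE 0.33, adjusted p = 1), a value that changed sign with 1 library left out: it was 0.14 without WT-WT replicate 3 and 0.08 without KI-KI replicate 2. No group was left without overlap in these contrasts, where 5.36% (WT-KI against WT-WT) and 7.06% (KI-KI against WT-KI) of all genes tested did not overlap.

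*Gpr182*, chosen for its low WT-KI values, had counts of 25, 28 and 18 in WT-WT testes, 11, 8 and 7 in WT-KI testes and 29, 16 and 16 in KI-KI testes. The 3 WT-KI testes were below all others, and the WT-WT and KI-KI testes overlapped. In CPM the levels were 1.13 ± 0.252 in WT-WT, 0.436 ± 0.0634 in WT-KI and 0.954 ± 0.324 in KI-KI testes (SD, n = 3 each). The fitted log2 fold change of *Gpr182* was -1.37 (SE 0.34) in WT-KI against WT-WT, 1.11 (SE 0.38) in KI-KI against WT-KI and -0.25 (SE 0.35) in KI-KI against WT-WT testes. The first 2 rest on the same 3 WT-KI libraries. With 1 library left out the KI-KI against WT-WT value ran from -0.54 (without KI-KI replicate 1) to -0.033 (without KI-KI replicate 2), the KI-KI against WT-KI value from 0.82 (without KI-KI replicate 1) to 1.33 (without KI-KI replicate 2) and the WT-KI against WT-WT value from -1.53 to -1.18.

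No other member had WT-KI testes that were all below or all above another genotype. Of all genes tested, only 5.36% (WT-KI against WT-WT) and 7.06% (KI-KI against WT-KI) did not overlap. The 5 genes whose log2 CPM was most like that of *Gpr182* over the 9 testes, out of 12977 genes, were *Map3k20* (r = 0.90), *Glb1* (0.88), *Cdc42bpg* (0.88), *Dhrs3* (0.88) and *Scyl2* (0.87). None of them is a gene of the endothelial lists. The ranking includes the WT-KI values on which *Gpr182* was chosen, so it is only a description. *Gpr182* (chr10:127747276-127751732, minus strand, GRCm38) shares 74 bases with *Zbtb39* on the opposite strand. *Cdh5* (chr8:104101625-104144511, plus strand) shares 4249 bases with the antisense gene *Gm29682*. Whether counting used the strand is not given in the sources used here, so reads in the shared bases cannot be told apart. The other 8 members overlap no annotated gene.

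**Figure D2:**
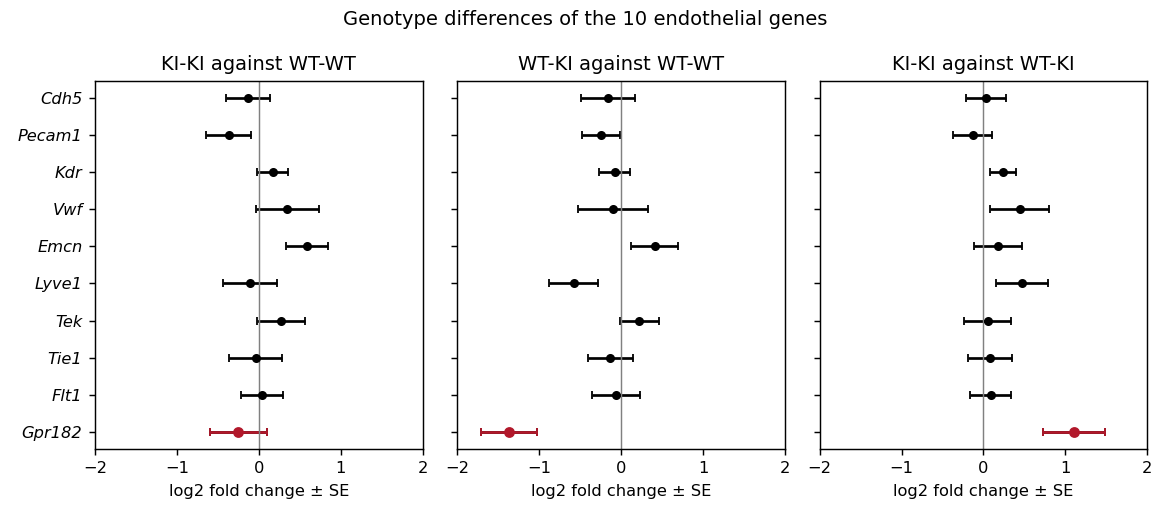
Log2 fold change (horizontal, point) with its SE (line) of each gene (vertical) in the 3 contrasts, from edgeR. The 9 tested genes (black) lie between -0.58 and 0.59; *Gpr182* (red), which was chosen on WT-KI against WT-WT, is at -1.37 and 1.11 where WT-KI testes are compared.

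Testes of 1 genotype were not at the same stage. In mice of this age the first round spermatids, the haploid cells that follow meiosis, are appearing, and a round spermatid score was taken by averaging log2 CPM over 20 genes of these cells, none of them a member. In replicate order it was 5.64, 2.21 and 0.95 in WT-WT testes, 4.67, 3.16 and 0.40 in WT-KI testes and 2, 3.36 and 5.45 in KI-KI testes. The 3 genotypes spanned overlapping ranges. A slope on the score was fitted over the 9 testes with genotype in the model, as the log2 change in CPM for each unit of score, and 17.4% of 15771 genes rose and 8.29% fell at that adjusted threshold (0.05) in edgeR.

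Of the 10 members, 1 rose with the score, *Vwf*, and 0 fell, with a median slope of -0.02 beside -0.01 for all genes tested. *Vwf* counts were 172, 103 and 66 in WT-WT testes, 162, 87 and 59 in WT-KI testes and 131, 134 and 164 in KI-KI testes. From the lowest to the highest score, *Vwf* CPM was 3.19, 5.04 and 7.98 in WT-WT testes, 3.10, 4.86 and 7.27 in WT-KI testes and 5.86, 5.47 and 9.33 in KI-KI testes. The testis with the highest score was the highest in each genotype, and the order was kept throughout in WT-WT and WT-KI but not in KI-KI testes.

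The slope of *Vwf* was 0.26 (SE 0.04), a 1.19-fold rise for each unit of score (edgeR's quasi-likelihood test, adjusted p = 0.000574). Over the range of scores seen, 0.40 to 5.64, it makes a 2.53-fold rise. With each testis left out in turn the slope was 0.23 to 0.28, with adjusted p from 0.000297 to 0.00941. Scaled to the summed counts of Sertoli, Leydig and peritubular myoid genes in place of all genes, it was again 0.26. That sum was led by 1 Sertoli gene, *Clu*, with a mean of 1170 CPM beside 1250 to 1910 CPM for all Sertoli genes listed. By genotype *Vwf* CPM was 5.4 ± 2.42 in WT-WT, 5.08 ± 2.09 in WT-KI and 6.89 ± 2.13 in KI-KI testes (SD, n = 3 each), so its spread within a genotype exceeded the differences between them.

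The rise was smaller in the FPKM values. *Vwf* FPKM was 1.03, 0.67 and 0.43 in WT-WT testes, 0.84, 0.85 and 0.40 in WT-KI testes and 1.05, 0.78 and 0.98 in KI-KI testes, in replicate order. On log2(FPKM + 0.1) the slope was 0.17, and limma gave an adjusted p of 0.0625. The ratio of CPM to FPKM, in effect a transcript length in kilobases, varied 1.71-fold between testes for *Vwf* (5.58 in KI-KI replicate 1 to 9.52 in KI-KI replicate 3) and 1.10-fold to 1.43-fold for the other 9 members. The part of this ratio in the result was not tested.

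Platelets also carry *Vwf* RNA. The summed CPM of genes of platelets was 4.41 to 6.31 in the 9 testes, and the highest value was in WT-KI replicate 3, the testis with the least *Vwf*. Adipose genes were highest in KI-KI replicate 3 (27.0 CPM) and WT-WT replicate 1 (14.1 CPM), the libraries with the most *Vwf*, against 5.41 to 13.8 CPM in the others. Without KI-KI replicate 3 the *Vwf* slope was 0.25, and without WT-WT replicate 1 it was 0.26. In edgeR, genes of other lists rose with the score too: 2 of 8 Leydig genes and 1 of 7 peritubular myoid genes (*Actg2*, slope 0.68, 3.57 to 52.7 CPM). So did 1 of 7 adipose genes (*Adig*, 1.39, 0 to 2.6 CPM), 1 of 3 epididymal genes (*Cst8*, 0.91, 1.05 to 22.9 CPM) and 1 of 3 skeletal muscle genes (*Actn3*, 0.13). Of 12 listed epididymal and 10 listed skeletal muscle genes, 9 and 7 were below the filter. The *Cst8* slope lay within those of the round spermatid genes, 0.55 to 2.05. Among all genes tested, 17.4% rose and 8.29% fell. Of 12 Sertoli genes 1 rose and 3 fell, and of 8 platelet and red cell genes 1 fell, the globin gene *Hbb-bt* (-0.27). The part of other cell types in the *Vwf* result was not tested beyond these values.

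**Figure D3:**
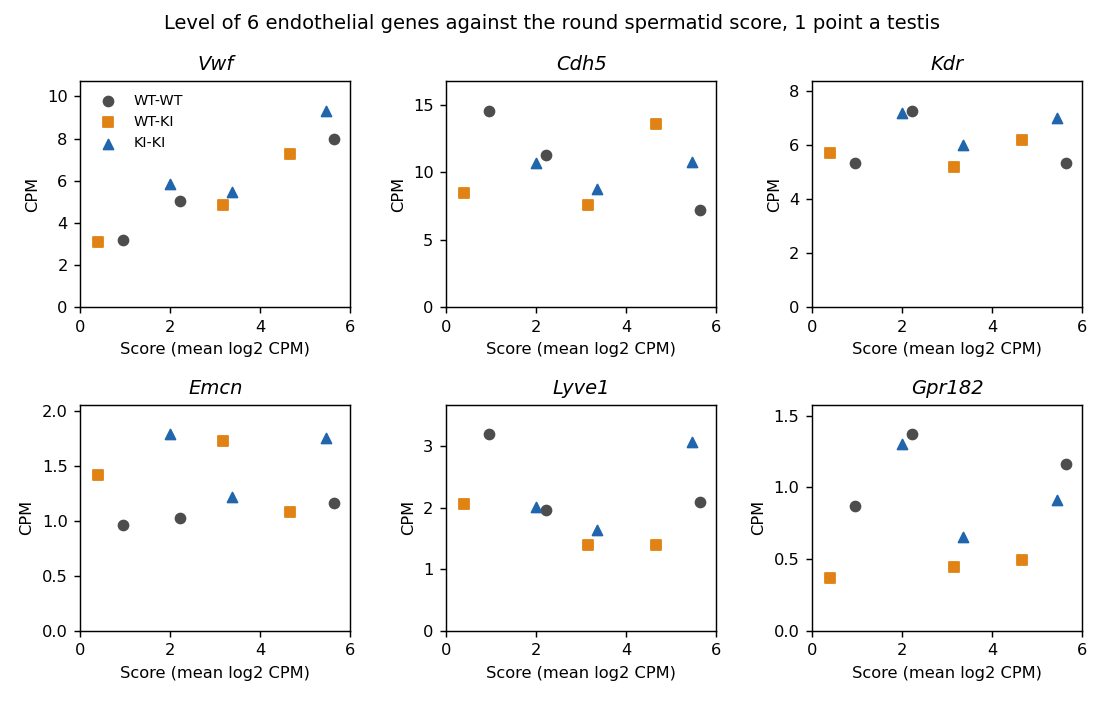
CPM (vertical, from 0) of 6 of the genes against the round spermatid score (horizontal, mean log2 CPM of 20 genes), 1 point a testis, marked by genotype. *Vwf* goes from 3.10 CPM at a score of 0.40 to 9.33 CPM at 5.45. The 3 WT-KI testes are the lowest for *Gpr182*, which was chosen on these values.

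The junction genes *Pecam1* (slope -0.06, SE 0.06, adjusted p = 0.457) and *Cdh5* (-0.03, SE 0.06, adjusted p = 0.723) did not pass edgeR's quasi-likelihood test. Neither did the VEGF receptors *Kdr* (-0.01, SE 0.04, adjusted p = 0.923 in edgeR) and *Flt1* (0.10, SE 0.06, adjusted p = 0.220). The *Flt1* slope was 0.045 without WT-WT replicate 1, and its CPM was 4.50 in the WT-WT testis with the highest score but 2.90 in the KI-KI testis with the highest score.

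The angiopoietin receptor gene *Tek* (slope -0.03, SE 0.06, adjusted p = 0.766 in edgeR) and its partner *Tie1* (-0.05, SE 0.07, adjusted p = 0.611) did not pass either. For *Emcn* the slope was 0.0047 (SE 0.075, adjusted p = 0.971 in edgeR), for *Lyve1* -0.04 (SE 0.07, adjusted p = 0.695) and for *Gpr182* 0.01 (SE 0.09, adjusted p = 0.924). In the 3 WT-KI testes, at scores of 0.40, 3.16 and 4.67, *Gpr182* CPM was 0.368, 0.447 and 0.493.

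**Figure D4:**
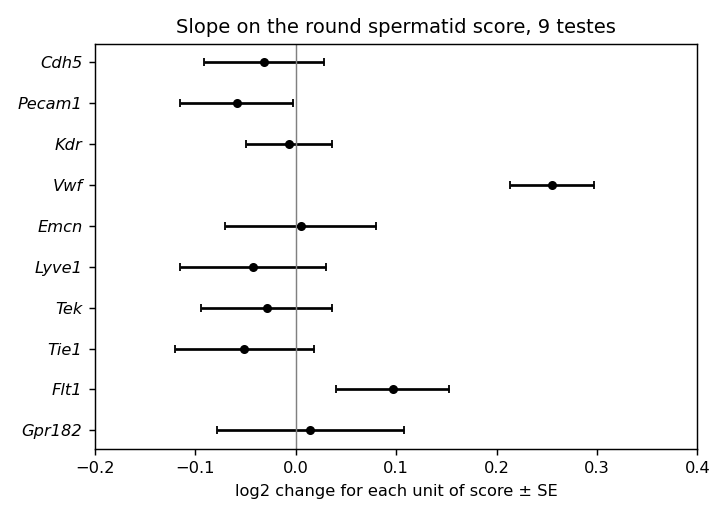
Log2 change in CPM for each unit of the round spermatid score (horizontal, point) with its SE (line) for each gene (vertical), from edgeR over 9 testes with genotype in the model. *Vwf* is at 0.26 and the other 9 genes lie between -0.06 and 0.10.

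Other endothelial genes were read from lists. Of 32 further endothelial genes, 30 were tested, and 2 rose with the score in edgeR's quasi-likelihood test, *Gata2* (slope 0.32, SE 0.05, adjusted p = 0.000149) and *Klf2* (0.19, SE 0.05, adjusted p = 0.0139), both of which encode transcription factors. None fell, and the median slope was -0.03. The 3 with the highest CPM were *Cd34* (33.5 CPM, slope -0.06), *Cav1* (33.0 CPM, slope -0.10) and *Ptprb* (10.9 CPM, slope 0), which did not pass. *Gata2* went from 2.79 to 8.54 CPM between testes.

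Of 25 genes of VEGF, angiopoietin and Notch signalling, 24 were tested. With the score, 1 rose, the endothelial Notch receptor gene *Notch4* (slope 0.20, SE 0.05, adjusted p = 0.0185 in edgeR), and 2 fell: *Hif1a* (-0.11, SE 0.02, adjusted p = 0.00721), which encodes the oxygen-regulated transcription factor, and the Notch target *Heyl* (-0.14, SE 0.05, adjusted p = 0.0443). *Epas1* (53.6 CPM, slope -0.06) and *Jag2* (31.3 CPM, slope -0.02), the most abundant after *Hif1a* (56.4 CPM), did not pass.

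Of 12 lymphatic and scavenger endothelial genes, 11 were tested and 3 rose: *Prox1*, the transcription factor of lymphatic identity (slope 0.39, SE 0.06, adjusted p = 0.000451 in edgeR), the hyaluronan scavenger receptor gene *Stab2* (0.12, SE 0.04, adjusted p = 0.0354) and the lectin gene *Clec4g* (0.09, SE 0.03, adjusted p = 0.0451). *Prox1* CPM was 0.894 to 5.41, while *Lyve1*, another marker of lymphatic vessels, gave a slope below 0 that did not pass. *Reln* (17.5 CPM, slope 0.01) and *Ackr3* (12.9 CPM, slope -0.03) did not pass. The median slope of the 11 genes was -0.03, beside -0.01 for all genes tested. At an unadjusted p under 0.05 in edgeR there were 5 of the 11, and only 3 of these had a slope above 0. In these 3 lists 2 of 30, 1 of 24 and 3 of 11 genes rose, beside 17.4% of all genes, and 0, 2 and 0 fell, beside 8.29%.

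Of the 8 pericyte genes tested, *Ndufa4l2* rose (slope 0.14, SE 0.03, adjusted p = 0.00673 in edgeR), *Rgs5* fell (-0.09, SE 0.03, adjusted p = 0.0401) and the most abundant, *Mcam* (25.6 CPM, slope -0.05), did not pass. Of the 13 macrophage genes tested, *Csf1r* rose (slope 0.09, SE 0.03, adjusted p = 0.0411 in edgeR), and *Mrc1* (39.6 CPM, slope 0.06) and *Lyz2* (22.6 CPM, slope 0.01) did not pass. Of all genes, 17.4% rose and 8.29% fell. The macrophage genes summed to 103 to 129 CPM in WT-WT, 107 to 124 CPM in WT-KI and 116 to 134 CPM in KI-KI testes. These ranges overlapped between each pair of genotypes.

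Between genotypes none of these 5 lists held a gene that edgeR called at an adjusted p under 0.05. At an unadjusted p under 0.05, KI-KI against WT-WT gave 0 genes in each list, WT-KI against WT-WT gave 1 of 24 signalling genes and 0 in the others, and KI-KI against WT-KI gave 1 of 30 other endothelial, 3 of 24 signalling and 2 of 11 lymphatic and scavenger genes. The shares of all genes at that threshold were 1.26%, 1.11% and 2.22% in the 3 contrasts. The median log2 fold changes of the 30 other endothelial genes were 0.08, 0.02 and 0.09 in the 3 contrasts, beside -0.01, -0.02 and 0.01 for all genes tested. The summed CPM of the 10 members was 38.2 to 43.9 in WT-WT, 34.0 to 44.3 in WT-KI and 36.2 to 47.0 in KI-KI testes, and these ranges overlapped.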

How the data were processed

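RNA-seq libraries of 9 whole testes, 3 per *Piwil4* genotype by the sample labels, were analysed from 1 table. The members and gene lists were chosen with earlier results of these data known. The authors filtered reads with fastp (version 0.18.0), assembled them with StringTie (version 1.3.1) on a reference and deposited FPKM per gene and testis. The table the authors deposited also holds an estimated count, of which 89.2% were whole numbers. The aligner, counting tool and strand setting are not given in the sources used here. The submitters' processing notes name mm39. Gene coordinates here are those of the GENCODE annotation of GRCm38 and promoters those of RefSeq on GRCm38.p6, so only names were joined to the table.

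Estimated counts were rounded and fitted in R (version 4.3.3) with edgeR (version 4.0.16): filterByExpr, TMM, quasi-likelihood test, two-sided, Benjamini-Hochberg over all genes tested, called at an adjusted p under 0.05. Pairs of genotypes were fitted separately. The slope on the round spermatid score (prior count 1) used 9 libraries with genotype as a factor. The fits were tested on simulated data. All 10 members passed the filter in the 4 edgeR fits reported, and the alternatives with stricter filters lost *Gpr182* or *Flt1* and *Gpr182* on the slope. CPM is TMM-scaled throughout. FPKM compares genes and CPM compares testes. Counts limit precision: a floor of 3 counts is 0.124 to 0.167 CPM, and Poisson values cover counting error only.

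Each member is given by its level. A genotype fold change is given singly for *Gpr182*, *Lyve1* and a member whose groups do not overlap or with an unadjusted p under 0.05, and a slope for each member. Of the other lists, the 3 genes highest in CPM are named by rule. Genes called on the slope were named after their values were seen. The likeness rule took the 5 genes with the highest Pearson r. Alternative fits used DESeq2 (version 1.42.0), the DESeq2 scaling in edgeR, and limma (version 3.58.1) for log2(FPKM + 0.1) or log2(FPKM + 1) with a mean FPKM of at least 0.5 or no filter, as well as no count filter, a minimum of 10 counts per library, a joint fit of the 9 libraries, the score as a covariate, a pachytene score, somatic scaling, no genotype term, the replicate number as a block and each library left out.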

Additional observations from a re-analysis of the deposited data

How the results depend on the processing

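The counts of called members between genotypes were 0 in all 16 alternatives of each contrast. On the slope, the number of members called went from 1 (*Vwf*) to 0 under the pachytene score (adjusted p of *Vwf* 0.0805), log2(FPKM + 0.1) (0.0625) and log2(FPKM + 1) (0.073) in limma; the cause was not tested. Leaving out each library kept the number at 1. Over all genes, the edgeR fit reported called 4059 of 15771 and the pachytene score 2942 of 15771. The limma fits on log2(FPKM + 0.1) and log2(FPKM + 1) called 4607 and 4610 of 14154, so they did not call fewer genes in general. The *Gpr182* fold change in WT-KI against WT-WT testes was -1.53 to -1.18 with 1 library left out and -0.86 on log2(FPKM + 0.1) without a filter, where the pseudocount shrinks low values.

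Slopes that did not pass changed sign as follows: *Tek* 0.80 with the pachytene score, *Kdr* 0.0046 without a genotype term, *Emcn* -0.0016 and -0.00046 in limma on log2(FPKM + 0.1) and log2(FPKM + 1), and, with the replicate block, *Tie1* 0.021, *Gpr182* -0.028 and *Lyve1* 0.008. The *Flt1* slope was 0.048 with the replicate block. With 1 library left out, slopes ran from 0.045 to 0.14 (*Flt1*), -0.11 to -0.0042 (*Pecam1*), -0.12 to 0.075 (*Cdh5*), -0.03 to 0.027 (*Kdr*), -0.09 to 0.016 (*Tek*), -0.11 to 0.04 (*Tie1*), -0.027 to 0.049 (*Emcn*), -0.037 to 0.081 (*Gpr182*) and -0.12 to 0.01 (*Lyve1*), and the *Lyve1* fold change in KI-KI against WT-WT testes from -0.41 to 0.14. None of 166 alternative slopes of the 9 members other than *Vwf* had an adjusted p under 0.05.

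Deviations of same-numbered samples correlated from -0.85 to 0.90. For replicates 1 and 3 the correlation was 0.81 and 0.90 between WT-KI and WT-WT testes, and -0.85 and -0.85 between KI-KI and WT-WT testes. The round spermatid score fell with replicate number in WT-WT and WT-KI testes and rose in KI-KI testes. These correlations therefore cannot tell a pairing by replicate number from stage. With the replicate block the *Vwf* slope was 0.24 (edgeR, adjusted p = 0.0048), and no count of called members changed. Counts of 7 to 66 for *Gpr182*, *Emcn* and *Lyve1* limit what 3 testes a genotype can resolve.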
